A study of Homo sapiens with 4 samples.

Results

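The genes described here are 9 receptor tyrosine kinases, MET, MST1R, AXL, TYRO3, MERTK, IGF1R, INSR, DDR1 and RYK, and GAS6, the ligand of the AXL group. They were taken by gene symbol, as every probe set whose platform annotation gives that symbol alone. This gave 34 of the 49293 probe sets that are no array controls, for 10 of the 18132 genes with such a probe set. They were measured on 4 Affymetrix PrimeView arrays in SCC-9, an established human cell line of tongue squamous carcinoma. Cells of 2 arrays had received a miR-585-5p mimic by transfection, and those of the other 2 had received miR-NC, the control small RNA. The labels give the same protocol for every sample, with transfection at 30 nM 24 hours after seeding, collection 36 hours later and labelling of 2 ug of total RNA. The question put to these transcripts is whether their levels differ after the miR-585-5p mimic.

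MET is the receptor of hepatocyte growth factor (HGF) and MST1R (RON) that of macrophage stimulating protein, and both are known for driving scattering and invasion of carcinoma cells. AXL, TYRO3 and MERTK bind GAS6, and TYRO3 and MERTK also PROS1, vitamin K-dependent proteins that bridge the receptors to phosphatidylserine on dying cells. IGF1R and INSR are closely related receptors of insulin-like growth factors and insulin, which signal through IRS proteins and PI3-kinase. DDR1 is activated by collagen, and RYK is a Wnt co-receptor whose kinase domain is regarded as inactive.

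The transfected microRNA is printed because its seed, bases 2 to 8, in capitals, is the part that pairs with messenger RNAs. RefSeq places it on the minus strand at chr5:169263649-169263670 (GRCh38.p14).

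hsa-miR-585-5p: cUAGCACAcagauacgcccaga

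The complement of the seed in a messenger RNA would read UGUGCUA. Of 2370 mature microRNAs in the RefSeq table, only 1, miR-585-5p itself, has this seed. Transcript sequences were not used here, so whether any of the 10 genes holds a site was not examined. No probe set measures the mimic itself. In bulk RNA of this kind, fewer cells with a transcript and less of it per cell cannot be told apart.

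Values are the deposited probe set intensities, taken to be linear, and changes are log2 differences, mimic minus miR-NC, with the SE from limma over 2 arrays per group. Median intensities were 30.6 to 31.3 on the 4 arrays. All 5 squamous markers were above background on every array, with summed intensities of 19075 to 19766 on the mimic arrays and 17511 to 18046 for miR-NC. They did not move together: KRT14 (0.97), EPCAM (0.59) and KRT5 (0.24) were higher with the mimic, and E-cadherin, CDH1 (-1.26, limma adjusted p = 4.59e-08), and SFN (-0.42) were lower, all past the threshold. The leukocyte marker PTPRC read 3.56 to 3.94. Of the fibroblast markers 1 of 5 was above background on all arrays, with sums of 71.6 to 75.8 and 73.0 to 75.5. Of the leukocyte markers it was 1 of 4 (95.2 to 111 and 117 to 121), of the endothelial markers 2 of 4 (73.4 to 76.3 and 79.1 to 82.9) and of the melanocyte markers 2 of 3 (64.4 to 66.8 and 80.6 to 81.0). Background here means the brightest of 20 control probe sets with no human target on each array, at most 16.8. Another set of controls, graded by base composition, read from 2.49 with 3 G or C bases to 1447 with 25, so whether dim readings measure their transcripts was not tested. Whether replicate arrays were hybridized with RNA of separate cultures is not stated in the labels. The p-values then cover no more than the spread among these arrays, possibly a technical one. They draw largely on the spread of other probe sets of similar brightness, as limma pools it.

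Of the 34 probe sets, 27 were bright enough to be tested, and 19 of them passed the threshold, 11 higher and 8 lower with the mimic (limma adjusted p under 0.05). Over all 34505 probe sets tested, 51.0% passed, 27.1% higher and 23.9% lower. The mimic and miR-NC arrays did not overlap for 24 of the 27 tested probe sets, beside 76.8% of all probe sets, and by gene for 9 of 10, beside 79.5%. With each gene counted once by its brightest probe set, 8 of the 10 passed, beside 55.1% of 14118 genes. The 5 that rose were INSR, GAS6, TYRO3, IGF1R and MERTK, beside 28.2% of all genes, and the 3 that fell were MET, DDR1 and RYK, beside 26.9%. The median log2 change of the 10 genes was 0.24 and that of all genes -0.06, and the median size of change was 0.49 against 0.29. The poly(A) spikes, which are control RNAs of bacterial genes put in ahead of labelling, read 0.35 higher (log2) on the mimic arrays. With the arrays scaled to them, the median of all genes moves to -0.40 and the split among the 27 probe sets becomes 7 higher and 13 lower. Among the 10 genes it becomes 2 higher (INSR, GAS6) and 5 lower (MET, DDR1, RYK, MST1R, AXL). Of all 14118 genes, 1629 then passed as higher and 8183 as lower, and of all 34505 probe sets 23418 passed. Changes are therefore given relative to the array as a whole. The value on the spike scale is added where it ends a call of the 10 genes. The same holds for genes around them that were named by the rule given under processing.

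**Figure D1:**
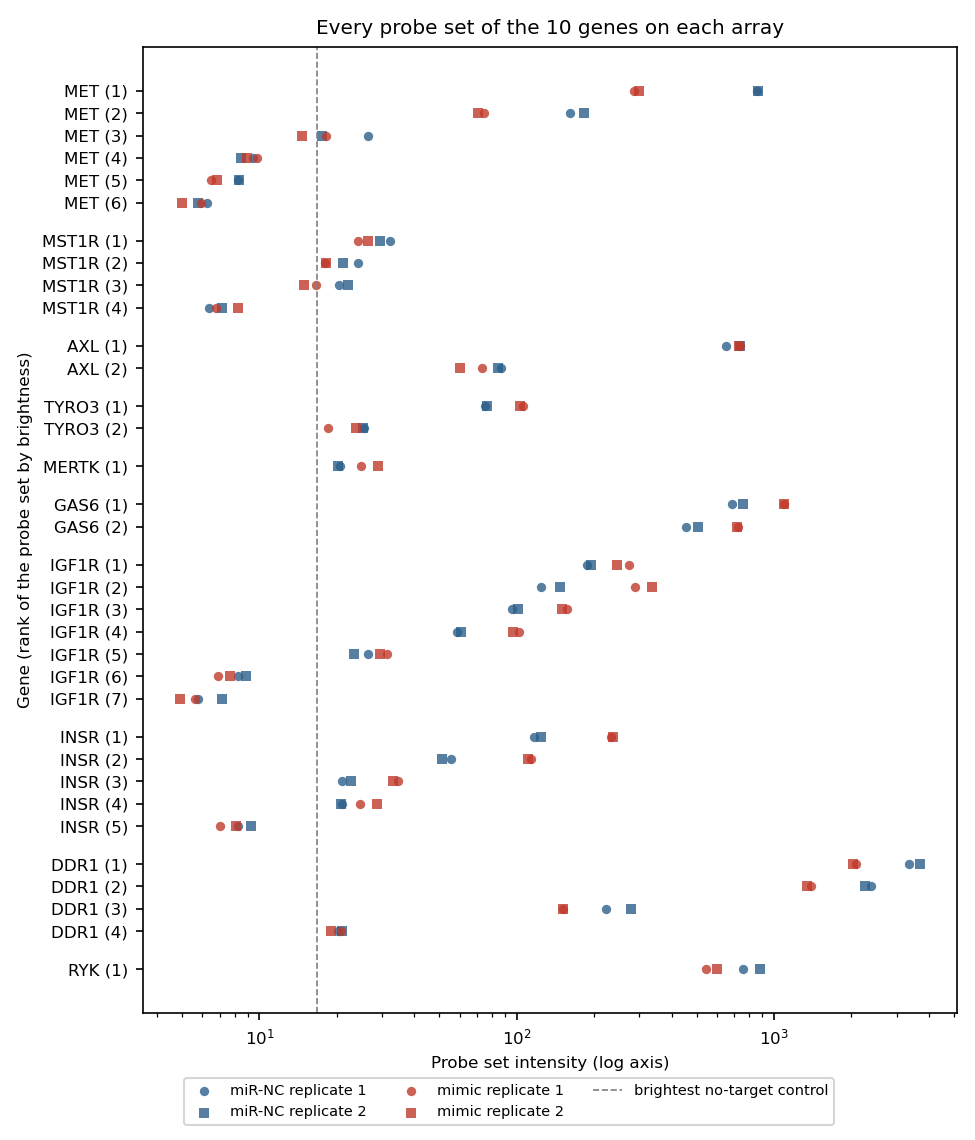
Intensity (log axis) of every probe set of the 10 genes on each array, with probe sets of a gene numbered from the brightest. Circles are replicate 1, squares replicate 2, red the mimic and blue miR-NC, and the dashed line marks the brightest no-target control on any array (16.8). The brightest MET probe set lies at 285 and 298 on the mimic arrays and at 859 and 867 on the miR-NC arrays, and INSR and IGF1R lie the other way round.

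MET fell more than any other of the 10 genes. Its brightest probe set (11716408_a_at) read 285 and 298 after the mimic, against 859 and 867 after miR-NC. Both mimic readings were far below both control readings, and replicates lay close together. The log2 change was -1.57 ± 0.06 (SE, n = 2 per group, limma adjusted p = 4.85e-09), a 2.97-fold fall. Among the 14118 genes MET had the 106th lowest change, so 0.744% of genes changed further down. MET lies on chromosome 7 at 116672196 to 116798377 (RefSeq, GRCh38.p14, as for all gene positions here).

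A second MET probe set (11735116_a_at) gave 74.6 and 70.8 with the mimic and 161 and 182 with miR-NC, a change of -1.24 ± 0.10 (limma adjusted p = 8.27e-07). It moved the same way by a somewhat smaller amount. The third, at 18.2 and 14.6 against 26.4 and 17.6, overlapped between groups and did not pass (-0.40 ± 0.20, 95% interval -0.83 to 0.03, limma adjusted p = 0.109), though it passed on the spike scale (-0.75). Single arrays moved it widely: it was at -0.69 and passed without miR-NC replicate 2, and was at -0.11 without miR-NC replicate 1 and at -0.24 without mimic replicate 2. The remaining 3 MET probe sets were at background on all 4 arrays, from 5.01 to 9.82, and were not tested. With the mean over all 6 probe sets, background ones included, the MET change was -0.60, and with their median it was -0.17 and did not pass.

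MST1R, the other receptor of the MET family, was read near background. Its brightest probe set read 24.2 and 26.3 on the mimic arrays, against 32.1 and 29.4 with miR-NC. The mimic arrays were lower without overlap, but the change of -0.28 ± 0.13 did not pass (95% interval -0.57 to 0.00, limma adjusted p = 0.0924). A second probe set was at -0.32 ± 0.14 (limma adjusted p = 0.0772). Both passed as lower on the spike scale (-0.63 and -0.67) and without the mean-variance trend, and the second without miR-NC replicate 2 (-0.41). The third, at 16.7 and 14.9 against 20.4 and 22.0, passed at -0.43 ± 0.14 (limma adjusted p = 0.0268), with only 1 of the 2 mimic arrays above background. That call was lost without mimic replicate 1 (-0.51), mimic replicate 2 (-0.35) or miR-NC replicate 2 (-0.37). The fourth was at background throughout. MST1R lies on chromosome 3 at 49887002 to 49903873.

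The ligand GAS6 rose on both of its probe sets. The brighter one (11754440_s_at) read 1096 and 1091 on the mimic arrays, against 684 and 761 with miR-NC. Its change was 0.60 ± 0.06 (limma adjusted p = 8.16e-06), a 1.52-fold rise. The other probe set, at 728 and 721 against 455 and 508, changed by 0.59 ± 0.07. The 2 readings agreed in size, and the mimic replicates were nearly equal while the miR-NC replicates differed more. On the spike scale the rise was 0.25 and still passed (limma adjusted p = 0.0179). Both GAS6 probe sets carry the suffix that marks possible matches to other transcripts, as does the RYK probe set, so neither gene has a value without such probe sets. GAS6 lies on chromosome 13 at 113820549 to 113864076.

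AXL, the TAM receptor best known for its part in carcinoma invasion and drug tolerance, gave a divided reading. Its brightest probe set read 739 and 735 on the mimic arrays, against 653 and 735 with miR-NC. Mimic replicate 2 and miR-NC replicate 2 were almost identical, and the change of 0.09 ± 0.07 did not pass (95% interval -0.06 to 0.24, limma adjusted p = 0.291). It passed without miR-NC replicate 2 (0.17), and on the spike scale the direction turned and passed (-0.26, limma adjusted p = 0.0172). The dimmer AXL probe set read 73.5 and 60.2 against 86.7 and 84.8 and fell by 0.37 ± 0.12 on the log2 scale (limma adjusted p = 0.0202), a call lost without mimic replicate 2 (-0.22) or miR-NC replicate 1 (-0.35). No single direction of AXL is thus given by these arrays, and the mean of both probe sets was -0.14. The gene lies on chromosome 19 at 41219223 to 41261766.

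TYRO3, the TAM receptor best known from the nervous system, rose on its brighter probe set, from 75.3 and 76.7 on the miR-NC arrays to 106 and 103 on the mimic arrays. The groups were well apart and the change was 0.46 ± 0.10 (limma adjusted p = 0.00161). The dimmer TYRO3 probe set, at 18.5 and 23.7 against 25.5 and 25.4, pointed the other way without passing (-0.28 ± 0.15, limma adjusted p = 0.146). Scaled to the spikes, the brighter one was at 0.11 and did not pass, while the dimmer one passed as lower (-0.62). The mean of both on the deposited scale was 0.09 and did not pass. Its position is chromosome 15 at 41559212 to 41583589.

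MERTK, which serves the clearance of dying cells by phagocytes, has 1 probe set. It read 24.8 and 28.9 on the mimic arrays, against 20.5 and 20.2 with miR-NC, above background but not far from it. The change of 0.40 ± 0.14 passed narrowly (limma adjusted p = 0.0324) and was lost when any 1 array was left out: 0.50 without mimic replicate 1, 0.29 without mimic replicate 2, 0.40 without miR-NC replicate 1 and 0.39 without miR-NC replicate 2. Scaled to the spikes it was at 0.05. MERTK lies on chromosome 2 at 111898607 to 112029561.

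**Figure D2:**
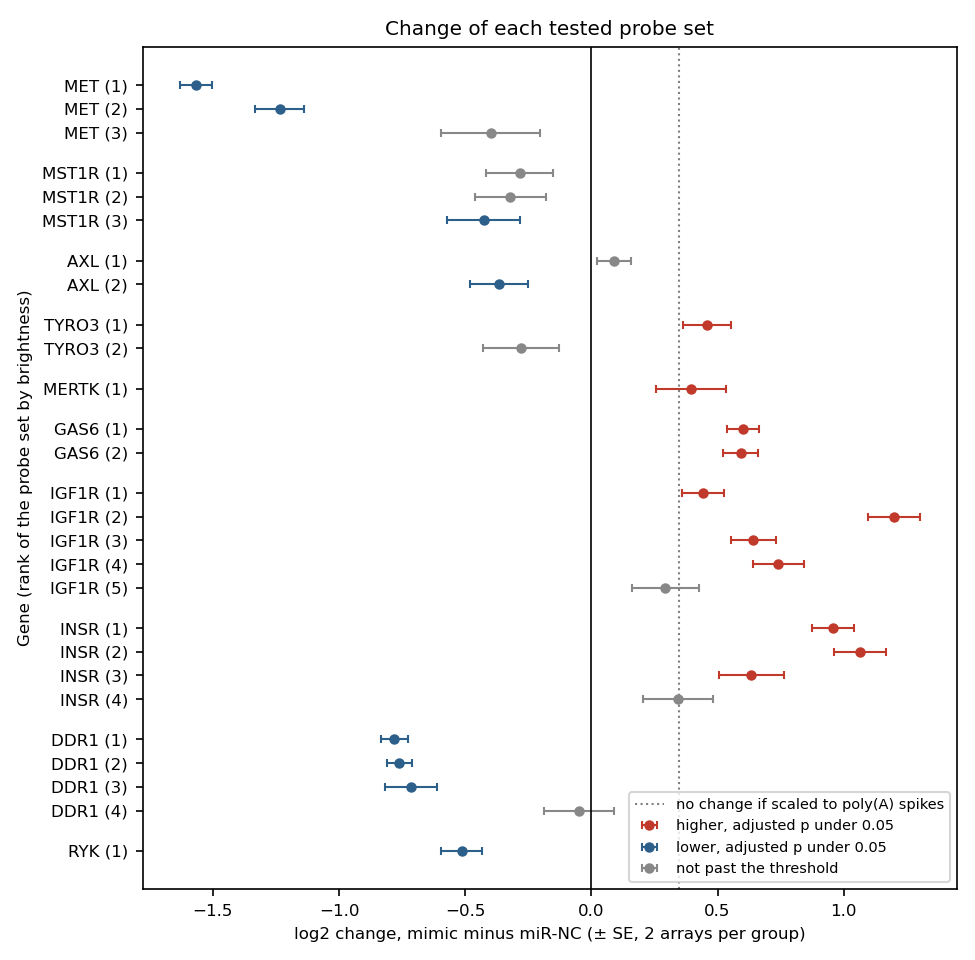
Log2 change, mimic minus miR-NC, of each of the 27 tested probe sets with its SE from limma (2 arrays per group), with probe sets of a gene numbered from the brightest. Red and blue points passed adjusted p under 0.05, grey points did not, and the dotted line at 0.35 marks no change on the poly(A) spike scale. MET, DDR1 and RYK lie to the left of 0 and GAS6, IGF1R and INSR to the right, while AXL and TYRO3 have a probe set on each side.

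INSR rose on 3 of its 4 probe sets above background. The brightest (11740018_a_at) read 234 and 237 on the mimic arrays, against 117 and 125 with miR-NC. That is a change of 0.96 ± 0.08 (limma adjusted p = 1.59e-06), a 1.94-fold rise, the 753rd highest change of the 14118 genes. The second, at 114 and 110 against 55.7 and 51.4, changed by 1.07 ± 0.10 (limma adjusted p = 3.68e-06). The mimic arrays read about the same multiple of the control arrays on both. The third read 34.7 and 33.0 against 21.0 and 22.6 (0.63 ± 0.13), and on the spike scale it was at 0.29 and did not pass. The fourth, at 24.6 and 28.5 against 20.9 and 20.8, narrowly missed the threshold (0.34 ± 0.14, limma adjusted p = 0.0565). The fifth was at background on all 4 arrays, at most 9.27, and was not tested. The brightest was at 0.61 and the second at 0.72 on the spike scale, and both passed. With the mean over all 5 probe sets INSR was at 0.56. INSR lies on chromosome 19 at 7112265 to 7294414.

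IGF1R rose on 4 of its 5 probe sets above background, by amounts that differed between probe sets. The brightest (11757745_s_at) read 273 and 246 on the mimic arrays, against 188 and 194 with miR-NC, a change of 0.44 ± 0.08 (95% interval 0.26 to 0.62, limma adjusted p = 7.19e-04). The second (11718705_at) read 288 and 337 against 125 and 148, a change of 1.20 ± 0.10 (95% interval 0.97 to 1.42, limma adjusted p = 1.54e-06). These intervals do not overlap, so a single fold change does not describe the gene. The difference between the 2 probe sets was not itself tested. Those in between read 158 and 151 against 96.0 and 101 (0.64 ± 0.09) and 102 and 97.0 against 58.5 and 60.7 (0.74 ± 0.10). The brightest and the one at 0.64 carry the suffix that marks possible matches to other transcripts, and those at 1.20 and 0.74 do not. Without such probe sets the value of the gene was 1.20. The fifth, at 31.3 and 29.4 against 26.4 and 23.2, was also higher on both mimic arrays but did not pass (0.29 ± 0.13, limma adjusted p = 0.0881). The sixth and seventh were at background, from 4.89 to 8.85, and were not tested. Scaled to the spikes, the brightest was at 0.10 and did not pass, while the second was at 0.85 and passed. IGF1R lies on chromosome 15 at 98648539 to 98964530.

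DDR1, a collagen receptor of epithelial cells, fell on its 3 brightest probe sets by nearly the same amount. The brightest (11716708_a_at) read 2081 and 2022 on the mimic arrays, against 3362 and 3695 with miR-NC, a change of -0.78 ± 0.05 (limma adjusted p = 2.18e-07), a 1.72-fold fall. The second read 1392 and 1346 against 2382 and 2259 (-0.76 ± 0.05). The third read 151 on both mimic arrays against 222 and 278 (-0.72 ± 0.10, limma adjusted p = 9.95e-05). The mimic replicates were close on each of the 3, and the groups did not overlap. The fourth, at 20.8 and 19.0 against 20.2 and 21.0, showed no difference beyond the spread (-0.05 ± 0.14, 95% interval -0.35 to 0.25). DDR1 lies on chromosome 6 at 30880970 to 30900156.

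RYK has 1 probe set. It read 544 and 601 on the mimic arrays, against 756 and 882 with miR-NC. The miR-NC replicates were further apart than the mimic replicates but the groups did not overlap, and the change was -0.51 ± 0.08 (limma adjusted p = 1.86e-04), a 1.43-fold fall. Leaving out each array in turn gave -0.63 to -0.40, and each passed. RYK lies on chromosome 3 at 134157133 to 134250859.

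Probe sets of a gene were compared in the 8 genes that have at least 2 above background on all arrays. All of them passed in 1 direction for MET (2 lower) and GAS6 (2 higher). In AXL, TYRO3, IGF1R, INSR and DDR1 part of them passed, in 1 direction each, and in MST1R none did. Among 7290 such genes on the array, 16.2% had all higher, 12.8% all lower, 42.3% part in 1 direction, 22.4% none and 6.26% calls in both directions. The 10 genes had no calls in both directions.

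**Figure D3:**
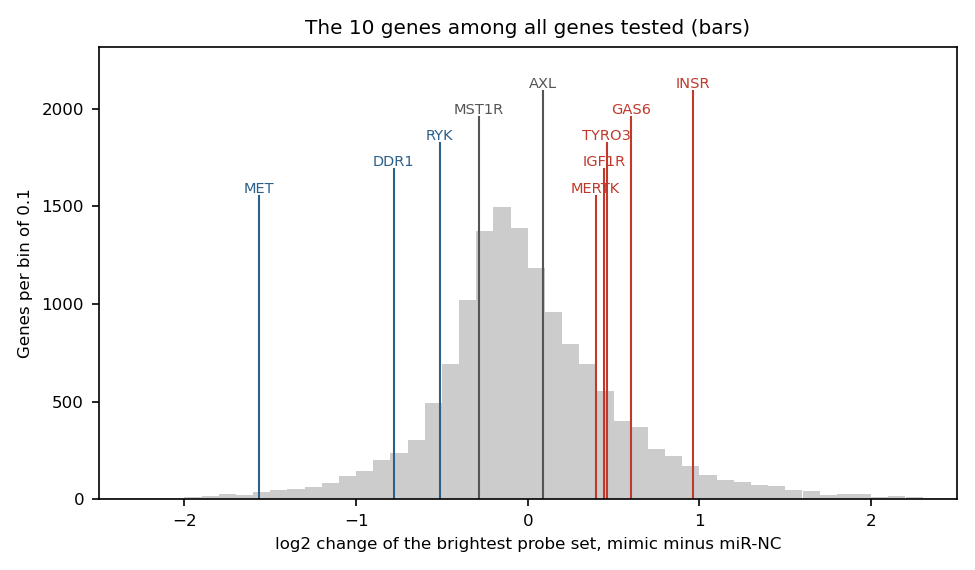
Histogram of the log2 change, mimic minus miR-NC, of the brightest probe set of all 14118 genes tested (grey bars, bins of 0.1, axis drawn from -2.5 to 2.5), with a line for each of the 10 genes. Red lines passed as higher, blue lines as lower, and grey lines did not pass. MET at -1.57 lies in the lower tail, INSR at 0.96 above 94.7% of genes, and AXL at 0.09 near the middle.

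Genes that act around these receptors were taken from lists by role, 71 genes of which 57 were tested. Of these 16 rose and 18 fell by the test over all genes, beside 28.2% and 26.9% of all genes, with a median log2 change of -0.09 against -0.06. On the spike scale 9 rose and 30 fell, beside 1629 and 8183 of all 14118 genes. Values below are those of the brightest probe set of each gene.

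Among 12 further ligands 8 were tested, of which 1 rose and 1 fell. The basement membrane collagen COL4A2 rose (1190 and 1197 against 952 and 936, 0.34 ± 0.05) and the fibrillar collagen COL1A1 fell, near background (18.4 and 18.9 against 26.6 and 24.9, -0.47 ± 0.13). On the spike scale COL4A2 was at -0.01 and without probe sets of possible other matches at 0.15, past the threshold in neither case, and COL1A1 did not pass without mimic replicate 1 (-0.44) or mimic replicate 2 (-0.49). HGF, the MET ligand, was above background on 1 of the 4 arrays, at 12.5 to 15.0. PROS1, which binds TYRO3 and MERTK, read 124 and 121 against 111 and 102 and did not pass (0.20 ± 0.09, limma adjusted p = 0.0817). WNT5A, a ligand of RYK, was too dim to be tested, at 15.1 and 15.0 on the mimic arrays, of which 1 was above background, and at 8.87 and 9.23 with miR-NC. COL3A1 was not tested either, and IGF2 and INS were not analysed here for want of a probe set with that symbol alone.

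Of 6 tested genes that process or control the ligands, 2 rose and 2 fell. The membrane serine protease ST14 (matriptase), an activator of pro-HGF, rose from 102 and 111 to 202 and 199 (0.92 ± 0.08, limma adjusted p = 6.02e-06), or by 0.37 with the mean of its probe sets. Its 2 Kunitz-type inhibitors parted. SPINT1 (HAI-1) fell from 1400 and 1403 to 553 and 493 (-1.43 ± 0.06, limma adjusted p = 4.20e-08), and SPINT2 (HAI-2) rose from 1810 and 1967 to 4049 and 4044 (1.10 ± 0.05, limma adjusted p = 4.09e-08). The other gene that fell was PAPPA2, a protease of IGF-binding proteins, named after its value was seen (-0.38). HPN (hepsin), another activator of pro-HGF, overlapped between groups and did not pass (0.07 ± 0.14, limma adjusted p = 0.677), and the activator HGFAC was at background and not tested.

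Among the IGF-binding genes 2 of 6 rose and none fell. IGFBP2, which binds IGF1 and IGF2, read 116 and 94.0 on the mimic arrays, against 51.5 and 65.2 with miR-NC (0.85 ± 0.14). The scavenging receptor IGF2R rose by 0.26 ± 0.06, though it did not pass without mimic replicate 2 (0.24), was at 0.08 with the mean of all its probe sets and at -0.09 on the spike scale. Of the proteases that cleave receptor precursors or shed receptors, FURIN, which processes the precursors of MET, IGF1R and INSR, fell by 0.36 ± 0.09 on the log2 scale, a call lost without mimic replicate 2 (-0.28). The FURIN reading comes from a probe set of possible other matches, and the gene has no value without such probe sets. ADAM10, a sheddase, rose by 0.55 ± 0.12, at 0.47 and not past the threshold without mimic replicate 2 and at 0.20 on the spike scale. PCSK6 was at 1.92 ± 0.11 and passed on a probe set of possible other matches, and without such probe sets it was at 0.17 and did not pass. With the median of all its probe sets it passed as lower (-0.32, limma adjusted p = 0.0465), so no direction of PCSK6 is given here. By their brightest probe sets 2 of 5 tested genes in this list passed as higher and 1 as lower.

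Adaptors and signalling subunits split, 5 higher and 7 lower of 15 tested. GAB1, the main docking protein of MET, fell from 96.4 and 94.2 to 45.1 and 38.9 (-1.19 ± 0.11, limma adjusted p = 6.98e-06). The adaptor SHC1 fell from 2446 and 2391 to 1292 and 1221 (-0.95 ± 0.05). The exchange factor SOS1 fell by 0.73 ± 0.08 on its brightest probe set, but without probe sets of possible other matches its change was 0.32, passing the other way. On the deposited scale the insulin receptor substrates parted, and both were named after their values were seen. IRS1 went from 343 and 324 to 231 and 220 (-0.56 ± 0.07), and IRS2 from 508 and 545 to 812 and 696 (0.52 ± 0.08). Neither was followed singly under other settings. The poly(A) spikes read 0.35 higher on the mimic arrays, and whether the rise of IRS2 passes on their scale was not tested.

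Negative regulators split as well, 4 higher and 4 lower of 10 tested. GRB14, an inhibitor of the insulin receptor, rose from 21.4 and 13.6 to 44.6 and 48.5 (1.45 ± 0.19), with 1 miR-NC array at background. The inositol phosphatase INPPL1 (SHIP2) fell from 368 and 381 to 190 and 170 (-1.06 ± 0.08), and was at -0.67 without probe sets of possible other matches. With the mean of all probe sets GRB14 was at 0.89. The ubiquitin ligase CBLB fell by 0.88 ± 0.08 (-0.49 with the mean of its probe sets), and its relative CBL, which ubiquitinates MET and was named after its value was seen, by 0.85 ± 0.09. Among 7 relatives and partners of the receptors, none rose and 3 fell. The semaphorin receptor PLXNB2 fell by 0.39 ± 0.06. ROR1, a relative of RYK among Wnt-binding kinases, was at -0.70 ± 0.11 on its brightest probe set and at 0.13 without probe sets of possible other matches. INSRR, a further relative of the insulin receptor, was at background in the mimic group and at least 1.28-fold lower there (limma adjusted p = 0.00530), a call lost without mimic replicate 1 (-0.54).

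**Figure D4:**
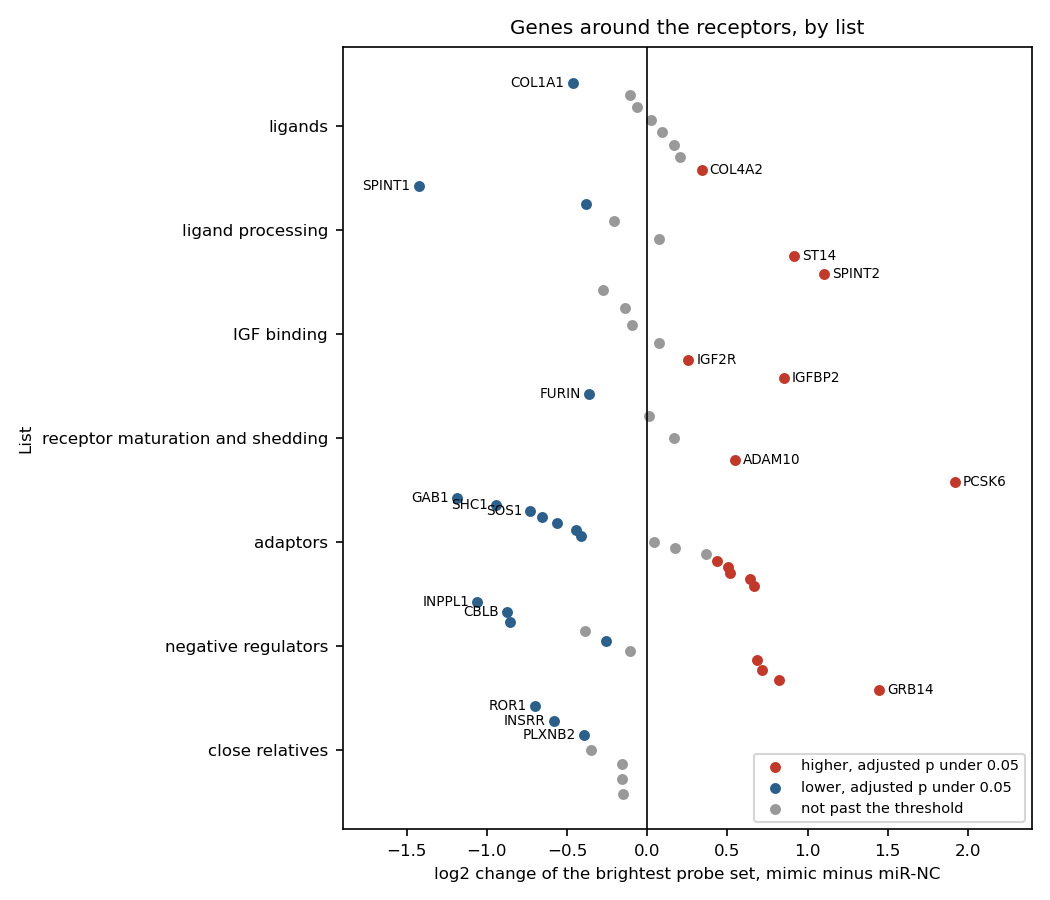
Log2 change, mimic minus miR-NC, of the brightest probe set of each of the 57 tested genes around the receptors, by list, with points spread vertically for legibility. Red and blue points passed adjusted p under 0.05 as higher and lower, grey points did not pass, and up to 3 of the largest changes of each list are named. SPINT1 at -1.43 and SPINT2 at 1.10 lie on opposite sides of 0, and adaptors and negative regulators have points on both sides.

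The genes whose profile over the 4 arrays lay nearest to INSR were PTGR1, FNDC3A and RAP2B, at Euclidean distances of 0.012, 0.023 and 0.027 between log2 values centred on each gene's mean, out of 14117 other genes. Their log2 changes were 0.96, 0.95 and 0.94. Nearest to MET were DNAJC30, RWDD4 and MED20, at 0.056, 0.056 and 0.062, with changes of -1.54, -1.56 and -1.58. These distances rest on 4 arrays in 2 groups and describe these arrays only.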

How the data were processed

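Total RNA of 4 samples was measured on PrimeView arrays. The deposited values are probe set intensities, made with RMA per the submitters' processing notes. They run from 2.09 to 17329, so they were read as linear, and log2 of the deposited values was analysed. RMA evens out the arrays' distributions, so on the deposited scale a shift of all transcripts would be largely removed. Groups came from the sample titles. Of 49395 probe sets, 102 are controls, 44988 have 1 gene symbol, 1832 several and 2473 none here.

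Probe sets with a mean above the 30th percentile (intensity 12.2) entered a model in limma 3.58.1 under R 4.3.3 (lmFit, then eBayes with a mean-variance trend), once over all probe sets and once over genes by their brightest probe set. Tests were two-sided with Benjamini-Hochberg adjustment over all features and a threshold of 0.05, and residual degrees of freedom were 2. The spread pooled over features added 9.55 degrees of freedom for probe sets and 8.25 for genes. The code was tested on simulated data. The number of arrays limits the precision. Errors are SEs. A bound sets the brighter group's mean against the higher of the brightest no-target control and the reading itself on each array. Genes of the lists were named by rule, up to 3 of the largest changes past the threshold per list whose groups do not overlap. The members and lists were chosen with earlier results of these data known. Alternatives tried were other filters, normalizations, spike scalings, spread estimates, thresholds and probe set choices, a replicate block, and leaving out each array.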

Additional observations from a re-analysis of the deposited data

How the results depend on the processing

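Of the 27 tested probe sets of the 10 genes, 16 to 20 passed when each array was left out in turn, against 19 with all arrays, and of the 10 genes 7 to 8, against 8. Of the 57 genes around them 27 to 37 passed, against 34. The counts over all probe sets and all genes moved too when an array was left out. Asking for a change of at least 1.5-fold left 4 of the 10 genes and 19 of the 57, beside 3175 of all 14118 genes. The other alternatives kept each of the counts for the 10 genes, their probe sets and the 57 genes within 1.5 times, though the genes called can differ. Between settings, 24 comparisons of single probe sets kept their direction and lost a call, 15 kept it and gained one, and 377 kept both. In 6 more the direction turned, whether or not the call changed.

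Directions turned in these cases. With the poly(A) spikes, AXL (brightest) was at -0.26, an IGF1R probe set (11718707_a_at) at -0.0529, an INSR probe set (11720858_a_at) at -0.0014, COL4A2 at -0.0074 and IGF2R at -0.0906. The dimmest DDR1 probe set (11747764_a_at) was at 0.0032 after a second quantile normalization, at 0.0018 with the hybridization spikes and ran from -0.116 to 0.0149 when each array was left out, the latter without mimic replicate 2. AXL was at -0.14 with the mean or median of its probe sets, and PCSK6 at -0.32 with the median, past the threshold as lower. Without cross-hybridizing probe sets SOS1 was at 0.32 and ROR1 at 0.13. The cause of these turns was not tested.

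The differences between replicates 1 and 2 of both groups correlated at 0.074 over 34505 probe sets. With a single difference per group, this cannot settle whether the replicate numbers of the titles mark pairs. With the replicate block, 21 of the 27 probe sets, 8 of the 10 genes and 38 of the 57 genes passed. Of all 34505 probe sets 18971 then passed, against 17596 without it, and of all 14118 genes 8266, against 7783.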
